A study of Mus musculus with 12 samples.

Results

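The matricellular and adhesive glycoproteins are described here through 10 genes, Postn, Tnc, Fn1, Sparc, Spp1, Thbs1, Thbs2, Tgfbi, Spon2 and Ccdc80. They were taken by symbol from the 47729 genes of each deposited table. No threshold on their levels entered the rule, but the choice was made with earlier results of these data known, so shares of all genes are printed beside their counts as a description. All 10 were found, and all 10 passed the filter on low counts. Postn and Thbs2 passed it through the metastasis libraries, since both stood near 0 in most primary libraries. Counts were scaled to library size and are given as CPM.

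Matricellular proteins are secreted into the extracellular matrix, where they act mainly as signals to cells rather than as load-bearing fibres. They bind integrins, CD44, CD47 and other receptors, and they tune adhesion, migration and the supply of growth factors such as TGF-beta. Fibronectin, the product of Fn1, is an adhesive glycoprotein that cells assemble into fibrils through integrins. In injured or fibrotic liver these proteins are known mainly as products of activated stellate cells and fibroblasts, with osteopontin (Spp1) made by biliary cells and macrophages too.

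The libraries came from 6 mouse liver cancer cell lines with the labelled genotype BRAFV600E and p53 KO. The M lines (M1, M2 and M3) were derived from lymph node metastases and the T lines (T1, T2 and T3) from primary liver tumours. Each line was grown for 48 h with 2 µM PLX4720, an inhibitor of the mutant BRAF kinase, or with DMSO, its solvent. This gave the groups metastasis with PLX4720, metastasis with DMSO, primary with PLX4720 and primary with DMSO, with 3 libraries each. BRAFV600E and loss of p53 are shared by the DMSO controls, and the design text describes expression of BRAFV600E in hepatocytes with loss of Trp53 or Cdkn2a. Each replicate is a separate line. Whether any of them came from the same animal is not stated, and T3, M2 and M3 have a number in common in their file names, so these lines may be related.

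Library totals ran between 31992512 and 39288748 counted fragments. Trp53 stood at 2.79 to 8.55 CPM over the 12 libraries, with no library that keeps the gene to compare. Dusp6, a feedback target of ERK signalling, was lower with PLX4720 in 6 of 6 lines and fell by 1.43 in log2 units (edgeR, adjusted p = 0.000404). The metastasis lines went against their labelled cell type. The 10 hepatocyte markers summed to 1.12 to 5.55 CPM with PLX4720 and 0.417 to 4.88 CPM with DMSO in metastasis lines, against 944 to 1870 CPM and 792 to 1480 CPM in primary lines. Alb was at 0 in all metastasis libraries and at 0.132 to 15.8 CPM in primary libraries. The primary sum was carried by Apob (627 to 1560 CPM) and Hnf4a (121 to 266 CPM). The 8 epithelial and cholangiocyte markers summed to 21.7 to 43.0 and 23.8 to 37.0 CPM in metastasis lines, against 5670 to 8180 and 5500 to 7740 CPM in primary lines. The 10 fibroblast and stellate markers stood the other way round, at 6460 to 15300 CPM with PLX4720 and 2290 to 6040 CPM with DMSO in metastasis lines, against 2.29 to 70.3 and 3.93 to 19.7 CPM in primary lines. Of these, Des was at 0 in all metastasis libraries and Thy1 at 0 in all primary libraries. The 4 mesothelial markers, mostly Msln, summed to 0.303 to 1.92 and 0.149 to 2.15 CPM in metastasis lines, against 563 to 789 and 502 to 604 CPM in primary lines. The 5 endothelial markers summed to 0.455 to 1.94 and 0.436 to 0.836 CPM in metastasis lines, against 0.545 to 38.5 and 0.263 to 75.1 CPM in primary lines. Leukocyte markers summed to 2.2 to 10.9 CPM over all libraries, with Adgre1 at 0 in each. Every difference between sites below moves with this difference in marker genes, and the site and the marker profile cannot be told apart here.

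The DNA just upstream of 3 of the genes is shown because they show 3 patterns described below. Postn had the largest fitted rise in metastasis lines, Thbs2 had changes of opposite sign by site that did not pass the test of their difference, and Spp1 was lower in every line. Each sequence holds the 250 bases before the RefSeq transcript start on GRCm38.p6, 5′ to 3′ on the strand of the gene. The regions are chr3:54360857-54361106 on the plus strand for Postn, chr17:14694263-14694512 on the minus strand for Thbs2 and chr5:104434861-104435110 on the plus strand for Spp1. Capitals mark the letters TATAAA on the gene's strand, or CAGACA read on either strand, which appears as TGTCTG when it lies on the opposite strand.
Postn: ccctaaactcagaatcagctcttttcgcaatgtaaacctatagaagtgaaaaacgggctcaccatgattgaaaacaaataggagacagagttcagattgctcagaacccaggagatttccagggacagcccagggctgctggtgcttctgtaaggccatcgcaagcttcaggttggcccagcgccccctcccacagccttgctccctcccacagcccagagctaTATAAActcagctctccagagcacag
Thbs2: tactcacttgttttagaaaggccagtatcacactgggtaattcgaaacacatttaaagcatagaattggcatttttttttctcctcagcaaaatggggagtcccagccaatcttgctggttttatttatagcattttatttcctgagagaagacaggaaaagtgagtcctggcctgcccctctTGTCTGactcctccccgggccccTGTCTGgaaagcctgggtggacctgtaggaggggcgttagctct
Spp1: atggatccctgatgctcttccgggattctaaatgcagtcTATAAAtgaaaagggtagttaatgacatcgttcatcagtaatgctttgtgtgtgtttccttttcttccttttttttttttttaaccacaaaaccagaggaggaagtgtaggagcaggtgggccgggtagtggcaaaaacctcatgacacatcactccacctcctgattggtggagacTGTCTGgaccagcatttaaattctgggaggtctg
In Postn the TATAAA letters lay 26 to 21 bases before the start. Thbs2 held CAGACA in reverse at 67 to 62 and at 44 to 39 bases before its start, and Spp1 held it at 34 to 29 bases before its start. The promoters of Tnc and Sparc, not shown, held CAGACA too, and those of Tnc also held TATAAA. Postn and Spp1 each have another RefSeq start, 1842 and 1074 bases from the gene start used for the counts. The promoters there held neither string. Over 32851 mouse promoters of 300 bases (250 before and 50 after the start), CAGACA, a letter string that SMAD proteins can bind, was found on either strand in 21.0%. TATAAA was found on the gene's strand in 8.32% of them. Promoters were available for 6 of the 10 genes, and neither the AP-1 letters TGANTCA (7.81% of promoters), the TEAD letters GGAATG (14.7%) nor a CArG box (1.63%) occurred on either strand in any of them. None of these motifs shares its whole sequence with another. Fn1, Thbs1, Spon2 and Ccdc80 are named only.

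Together the 10 genes took 0.772% to 1.25% of all fragments in metastasis libraries and 0.271% to 0.575% in primary libraries. Per kilobase of exon, Spp1 was the most abundant of the 10 by group mean in all 4 groups. Its level per length was 1107 ± 396 CPM per kb in metastasis lines with PLX4720 and 3751 ± 1528 CPM per kb with DMSO (SD, n = 3 each). In primary lines it was 735 ± 494 CPM per kb with PLX4720 and 1664 ± 928 CPM per kb with DMSO. Sparc came second in 3 of the 4 groups, and Thbs1 came second in metastasis lines with PLX4720, at 595 ± 307 CPM per kb against 488 ± 162 CPM per kb for Sparc. These ranges overlap, so the order of Thbs1 and Sparc there is not separated beyond their spread. Sparc and Thbs1 also overlapped in primary lines under both treatments. With DMSO, every Spp1 value (829 CPM per kb or more) stood above every Sparc value (416 CPM per kb or less). In M3 with PLX4720, Thbs1 (949 CPM per kb) stood above Spp1 (721 CPM per kb). At the other end by group mean, Postn was the lowest of the 10 in primary lines and Spon2 in metastasis lines. In M1 the lowest was Tnc with PLX4720 (7.22 CPM per kb) and Postn with DMSO (0.175 CPM per kb). The make-up of the group changed with the inhibitor: Spp1 gave 11.6% to 48.4% of the 10 genes' fragments with PLX4720, against 50.0% to 77.4% with DMSO. Thbs1 gave 10.8% to 56.2% with PLX4720, against 3.59% to 16.7% with DMSO. In each line the Spp1 share was lower and the Thbs1 share higher with PLX4720.

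**Figure D1:**
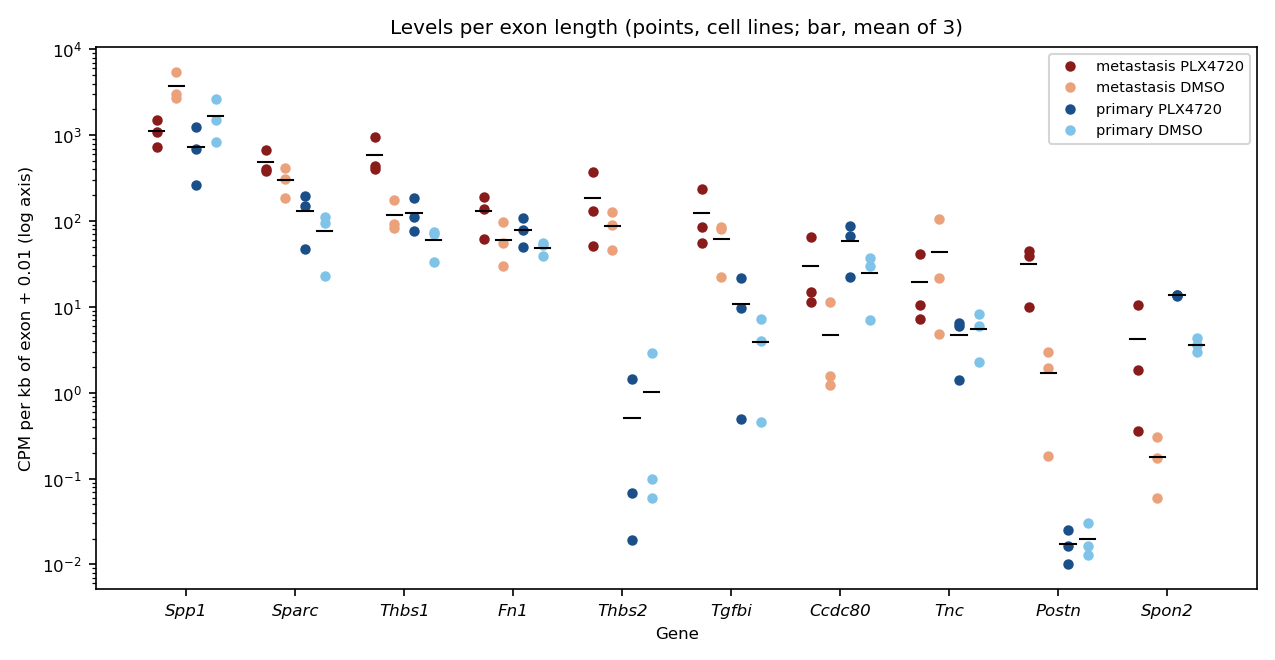
Level of each of the 10 genes per kilobase of exon (CPM per kb, 0.01 added, log axis), with 1 point per cell line and a bar at the mean of 3. Spp1 is highest in every group by mean, Postn stands near 0 in primary lines, and Thbs2 and Tgfbi are higher in metastasis lines than in primary lines.

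The comparison of PLX4720 with DMSO asked how each gene responds to BRAF inhibition within a line. Over all 6 lines, Fn1, Sparc, Thbs1, Tgfbi, Spon2 and Ccdc80 rose, Spp1 fell, and Postn, Tnc and Thbs2 did not pass the test. That is 7 of 10 genes past an adjusted p of 0.05 (edgeR quasi-likelihood test, line as a block), beside 27.2% of the 16555 genes tested (14.5% higher and 12.7% lower). The median log2 change of the 10 genes was 0.99, against 0.03 over all genes tested. The 6 genes that rose were higher in 6 of 6 lines, as were 12.7% of all genes tested. Spp1 was lower in 6 of 6 lines, as were 12.8%. In cultures measured in bulk, fewer cells of a type and less RNA per cell cannot be told apart. The summed fibroblast and stellate markers given above were also higher with PLX4720 in every M library than in any M library with DMSO. By gene, Acta2, Col1a1, Col1a2 and Pdgfrb passed as higher in metastasis lines (edgeR, log2 changes of 1.66 to 4.14). Col3a1, Dcn, Pdgfra and Thy1 did not pass there (0.13 to 0.67, edgeR adjusted p from 0.0535 to 0.74), and Lum and Des were not tested. The part of these markers in the changes of the 10 genes was not tested.

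**Figure D2:**
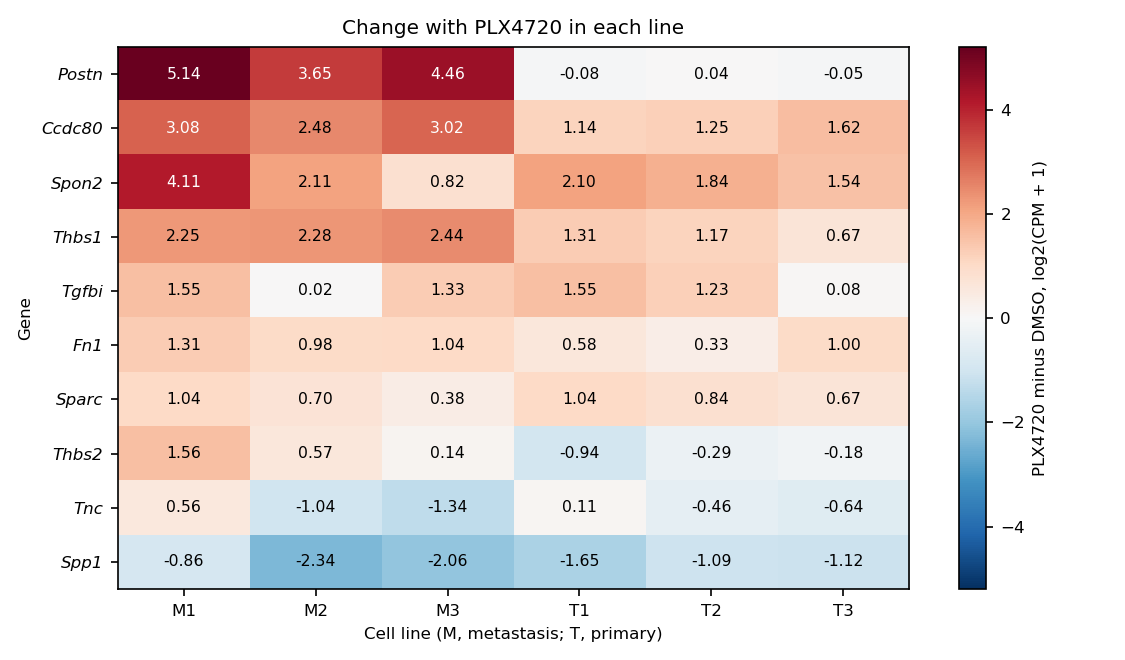
Change of each gene in each line, as the difference in log2(CPM + 1) between PLX4720 and DMSO, with metastasis lines left of primary lines. Spp1 is lower in all 6 lines, Postn changes by 3.65 to 5.14 in the M lines and by at most 0.08 in either direction in the T lines, and Thbs2 has opposite signs in the M and T lines.

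Fn1 (chromosome 1, 71585520 to 71653200, minus strand, GRCm38) encodes fibronectin. With PLX4720 it stood at 1610, 2220 and 724 CPM in M1, M2 and M3, against 648, 1130 and 353 CPM with DMSO. In T1, T2 and T3 it stood at 918, 585 and 1280 CPM with PLX4720, against 615, 464 and 642 CPM with DMSO. Each line was higher with PLX4720, while the ranges of the treatments overlapped at each site. The fitted log2 change was 0.87 ± 0.09 over all 6 lines (SE; edgeR adjusted p = 0.000459). It was 1.11 ± 0.13 in metastasis lines (adjusted p = 0.000687) and 0.64 ± 0.13 in primary lines (adjusted p = 0.0256). The call in primary lines was lost when any 1 primary line was left out, with adjusted p between 0.055 and 0.151. The difference of the responses between sites, 0.47 ± 0.19, did not pass the test (adjusted p = 0.267).

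Thbs1 and Thbs2 encode thrombospondins, secreted multimeric glycoproteins that bind CD47 and CD36 and restrain angiogenesis. Thrombospondin-1 can also release active TGF-beta from its latent form. Thbs1 (chromosome 2, 118111876 to 118127133, plus strand) was at 2640, 2440 and 5770 CPM in M1, M2 and M3 with PLX4720, against 555, 502 and 1060 CPM with DMSO. The primary lines T1, T2 and T3 had 1130, 460 and 678 CPM with PLX4720, against 455, 204 and 426 CPM with DMSO. The lowest metastasis library with PLX4720, at 2440 CPM, stood above all 9 libraries of the other groups, of which T1 with PLX4720 was the highest at 1130 CPM. The fitted log2 change was 2.32 ± 0.13 in metastasis lines (edgeR adjusted p = 2.45e-05) and 1.05 ± 0.13 in primary lines (adjusted p = 0.00481). Without T1 the primary value was 0.94, with an adjusted p of 0.0501.

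Thbs2 (chromosome 17, 14665500 to 14694262, minus strand) was abundant in metastasis lines and near 0 in T2 and T3. It was at 2230, 784 and 303 CPM in M1, M2 and M3 with PLX4720, against 755, 527 and 274 CPM with DMSO. T1, T2 and T3 stood at 8.55, 0.0545 and 0.348 CPM with PLX4720, against 17.4, 0.290 and 0.529 CPM with DMSO. The gene was therefore higher with PLX4720 in 3 of 3 metastasis lines and lower in 3 of 3 primary lines. T1 held most of the primary signal, and the 3 primary libraries with PLX4720 held 342 fragments in all, against 655 with DMSO. The log2 change in metastasis lines was 0.76 ± 0.23 (edgeR adjusted p = 0.0484), and that in primary lines, -1.03 ± 0.37, did not pass (adjusted p = 0.120). The primary value passed with DESeq2 (0.025), with no filter (0.0106), with primary libraries fitted alone (0.0329) and without M1 (0.0115). The metastasis call was lost without T1, T2, T3, M1 or M2, with adjusted p from 0.063 to 0.119, and without M1 the value was 0.36. It was also lost with metastasis libraries fitted alone (edgeR adjusted p = 0.0968).

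Postn and Tgfbi encode periostin and the TGF-beta-induced protein, related secreted proteins with fasciclin domains that bind integrins and collagen. Postn (chromosome 3, 54361109 to 54391037, plus strand) was at 87.9, 337 and 395 CPM in M1, M2 and M3 with PLX4720, against 1.52, 26.0 and 17.0 CPM with DMSO. For T1, T2 and T3 the levels were 0, 0.0545 and 0.134 CPM with PLX4720, against 0.0557, 0.0263 and 0.176 CPM with DMSO. The metastasis libraries with PLX4720 all stood above those with DMSO, and the 6 primary libraries together held 7 fragments with PLX4720 and 10 with DMSO. In metastasis lines the rise was 13.0-fold to 57.7-fold by line, largest in M1, which had the lowest DMSO level. The fitted log2 change there was 4.54 ± 0.33 (edgeR adjusted p = 7.86e-05). At this depth no change was detectable in primary lines (-0.44 ± 1.42, adjusted p = 0.881). Over all 6 lines, with the primary lines near 0, the value of 2.05 ± 0.90 did not pass (adjusted p = 0.124). It passed with DESeq2 (adjusted p = 0.00179), with no filter on low counts (0.0177), and without M1 (0.0375) or M2 (0.0421).

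Tgfbi (chromosome 13, 56609603 to 56639339, plus strand) split the lines within each site. It was at 630, 229 and 150 CPM in M1, M2 and M3 with PLX4720, against 215, 226 and 59.4 CPM with DMSO. The primary lines T1, T2 and T3 had 58.8, 26.2 and 1.31 CPM with PLX4720, against 19.5, 10.6 and 1.18 CPM with DMSO. M2 and T3 changed by 1.02-fold and 1.11-fold, and the other 4 lines by 2.47-fold to 3.02-fold. Over all 6 lines the log2 change was 1.10 ± 0.22 (edgeR adjusted p = 0.00766). In metastasis lines it was 0.98 ± 0.29 (adjusted p = 0.0443), a call lost without T1, T2, M1 or M3 (adjusted p from 0.0589 to 0.176) and with DESeq2 (0.0899). The metastasis call was also lost with metastasis libraries fitted alone (edgeR adjusted p = 0.0665). In primary lines, 1.23 ± 0.33 did not pass (adjusted p = 0.0555). It passed with no filter (0.000728), with primary libraries fitted alone (0.0159) and without M1 (0.0222) or M2 (0.0178).

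Sparc (chromosome 11, 55394500 to 55420080, minus strand) encodes a collagen-binding matricellular protein also called osteonectin. It was at 1290, 2270 and 1370 CPM in M1, M2 and M3 with PLX4720, against 623, 1400 and 1050 CPM with DMSO. T1, T2 and T3 stood at 158, 668 and 503 CPM with PLX4720, against 76.5, 373 and 316 CPM with DMSO. It was higher with PLX4720 by 1.30-fold to 2.07-fold in each line, and the log2 changes were 0.71 ± 0.13 in metastasis lines (edgeR adjusted p = 0.0064) and 0.85 ± 0.13 in primary lines (adjusted p = 0.0110). The primary call was lost without T1 (adjusted p = 0.0926) or T2 (adjusted p = 0.0602).

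Tnc (chromosome 4, 63959785 to 64047015, minus strand) encodes tenascin-C, a large multimeric protein of wounds and tumour stroma. It was at 56.1, 80.9 and 321 CPM in M1, M2 and M3 with PLX4720, against 37.9, 167 and 814 CPM with DMSO. For T1, T2 and T3 the levels were 50.5, 46.8 and 10.9 CPM with PLX4720, against 46.9, 64.9 and 17.6 CPM with DMSO. M2, M3, T2 and T3 were lower and M1 and T1 higher with PLX4720. The log2 change over all 6 lines, -0.49 ± 0.23, did not pass the test (edgeR adjusted p = 0.144). Nor did it pass in metastasis lines (-0.63 ± 0.32, adjusted p = 0.203) or primary lines (-0.34 ± 0.32, adjusted p = 0.541). Without M1 it was -0.77 over the other 5 lines (adjusted p = 0.00135) and -1.20 in metastasis lines (adjusted p = 0.00129).

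Spp1 (chromosome 5, 104435118 to 104441050, plus strand) encodes osteopontin, a secreted phosphoprotein that binds integrins and CD44. It was at 2490, 1790 and 1190 CPM in M1, M2 and M3 with PLX4720, against 4530, 9080 and 4940 CPM with DMSO. The primary lines T1, T2 and T3 had 436, 2060 and 1140 CPM with PLX4720, against 1370, 4390 and 2470 CPM with DMSO. It alone among the 10 genes passed the test as lower, and it was lower by 1.82-fold to 5.06-fold in each line. In metastasis lines the groups did not overlap, and there the level fell by 1.76 ± 0.26 in log2 units (adjusted p = 0.00207, edgeR). In primary lines it fell by 1.28 ± 0.25 (adjusted p = 0.0220), a call lost when any 1 primary line was left out (adjusted p from 0.0759 to 0.167). Over all 6 lines it fell by 1.52 ± 0.18 (adjusted p = 0.000759).

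Spon2 and Ccdc80 encode less studied matrix proteins, and both were higher with PLX4720 in every line. Spon2 (chromosome 5, 33198184 to 33218455, minus strand) encodes mindin, an F-spondin relative that serves as an integrin ligand for leukocytes. It was at 31.1, 5.37 and 1.02 CPM in M1, M2 and M3 with PLX4720, against 0.865, 0.476 and 0.145 CPM with DMSO. In T1, T2 and T3 it was at 40.8, 40.3 and 39.1 CPM with PLX4720, against 8.77, 10.6 and 12.8 CPM with DMSO. The primary lines reached nearly the same level (40.1 ± 0.861 CPM, SD, n = 3), while the metastasis lines differed widely and held 50 fragments in all with DMSO. The log2 change was 4.33 ± 0.37 in metastasis lines (edgeR adjusted p = 0.000163) and 1.92 ± 0.24 in primary lines (adjusted p = 0.00533). Without T1 the primary call was lost (1.79, adjusted p = 0.0555).

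Ccdc80 (chromosome 16, 45093402 to 45127924, plus strand) encodes a secreted protein that binds the matrix. It was at 61.5, 267 and 47.6 CPM in M1, M2 and M3 with PLX4720, against 6.39, 47.1 and 4.99 CPM with DMSO. In T1, T2 and T3 it was at 278, 367 and 91.6 CPM with PLX4720, against 125, 154 and 29.1 CPM with DMSO. The rise was 5.67-fold to 9.64-fold in the metastasis lines and 2.22-fold to 3.15-fold in the primary lines. The log2 changes were 2.98 ± 0.17 (edgeR adjusted p = 2.75e-05) and 1.35 ± 0.16 (adjusted p = 0.00427).

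**Figure D3:**
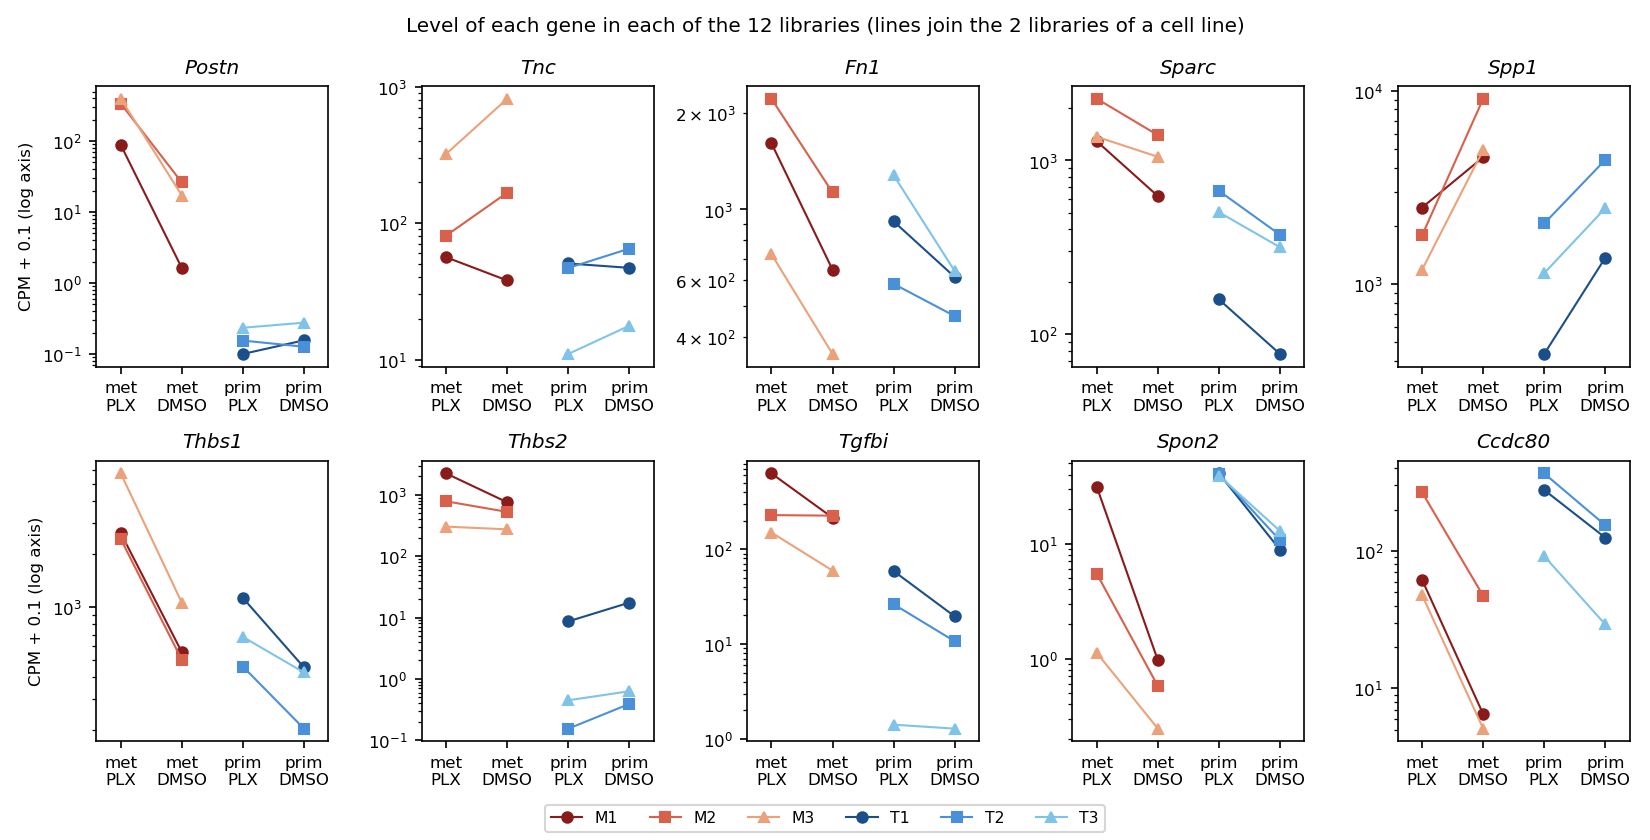
CPM of each gene in the 12 libraries (0.1 added, log axis that differs by panel), with metastasis lines left of primary lines and PLX4720 left of DMSO; a line joins the 2 libraries of a cell line. The Spon2 level with PLX4720 is nearly the same in T1, T2 and T3, and the Tgfbi level is nearly flat in M2 and T3.

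Within metastasis lines, 8 of the 10 genes rose and 1 fell, beside 12.0% and 8.36% of all genes tested (20.4% in either direction), and Tnc alone did not pass. Within primary lines, 5 rose (Fn1, Sparc, Thbs1, Spon2 and Ccdc80) and Spp1 fell, beside 4.46% and 3.77% of all genes (8.23% in either direction). The median log2 change of the 10 genes was 1.04 in metastasis lines and 0.74 in primary lines, against 0.02 and 0.03 over all genes tested. The primary count fell when any 1 primary line was left out. Without T1, 1 of the 10 genes passed (Ccdc80), and without T2, 3 passed. Over all genes, 91 of 17125 passed without T1 and 210 of 17235 without T2, against 1362 with all lines. Without T1 the log2 change was 1.79 for Spon2 and 0.77 for Sparc, against 1.92 and 0.85 with all lines. T3 with PLX4720 had 3.68% mitochondrial fragments, against 0.189% to 0.712% in the other libraries. Without T3, 4 of the 10 genes passed in primary lines (Sparc, Thbs1, Spon2 and Ccdc80), with Thbs1 at 1.27 and Ccdc80 at 1.22 on the log2 scale.

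The difference of the responses between sites was itself tested. Thbs1, Spon2 and Ccdc80 rose more in metastasis lines than in primary lines, which is 3 of 10 genes beside 1.85% of all genes tested as more positive there and 1.09% as more negative (2.94% in either direction). The difference was 1.27 ± 0.18 for Thbs1 on the log2 scale (edgeR adjusted p = 0.0111). It was 2.41 ± 0.45 for Spon2 (adjusted p = 0.0269) and 1.63 ± 0.23 for Ccdc80 (adjusted p = 0.0107). For Postn (4.98 ± 1.64, adjusted p = 0.179) and Thbs2 (1.78 ± 0.43, adjusted p = 0.0699) it did not pass in edgeR, and both passed with DESeq2 (0.000283 and 0.00101), with no filter (0.00607 and 0.00036) and without M1 (0.0342 and 0.0121). Without T2 none of the 10 genes passed: the adjusted p was 0.0546 for Thbs1, 0.0557 for Ccdc80 and 0.103 for Spon2. Spon2 also missed the threshold without T1, T3 or M1 (adjusted p from 0.0629 to 0.0794), and its value without M1 was 1.39. Without M1, 5 of the 10 passed. Postn, Thbs1, Thbs2 and Ccdc80 were then more positive in metastasis lines, and Spp1 was more negative there (-0.91, edgeR adjusted p = 0.0366). With DMSO, the group means of Ccdc80 and Spon2 were lower in metastasis lines than in primary lines, at 19.5 against 103 CPM and 0.496 against 10.7 CPM. That of Thbs1 was higher, at 706 against 361 CPM, and of these 3 site differences that of Spon2 alone passed the test.

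**Figure D4:**
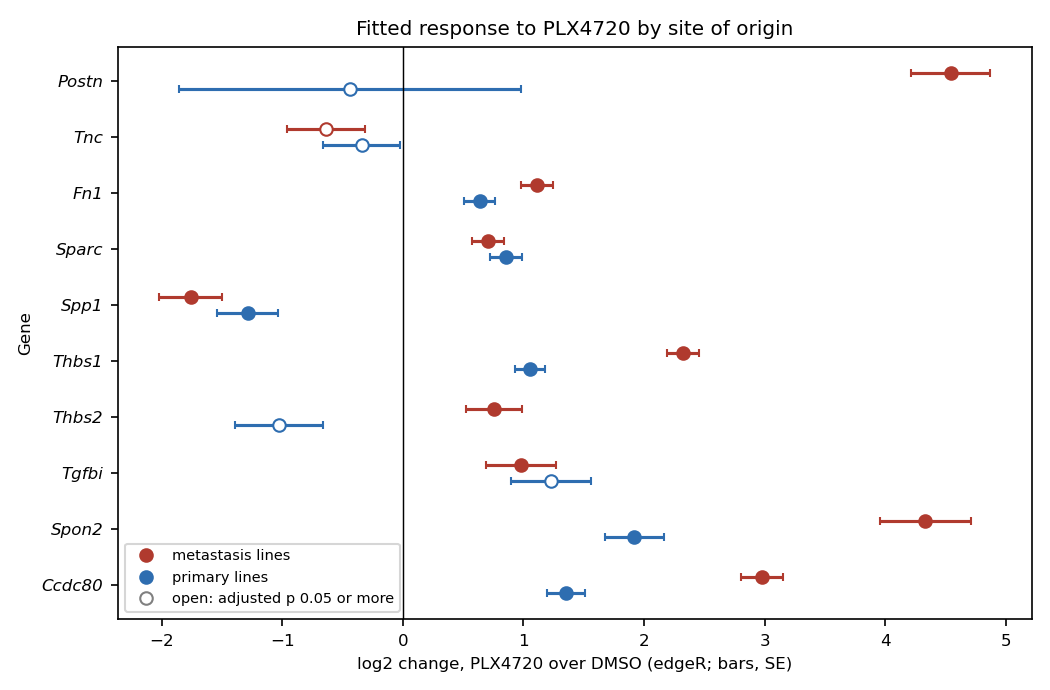
Fitted log2 change with PLX4720 over DMSO for each gene (edgeR, bars show SE), with metastasis lines above primary lines; filled points have an adjusted p below 0.05. Postn, Thbs1, Spon2 and Ccdc80 have larger values in metastasis lines, and the wide bar of Postn in primary lines rests on 7 fragments with PLX4720 and 10 with DMSO.

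Metastasis lines were then compared with primary lines under each treatment, on 6 libraries and with no block. With PLX4720, Postn, Thbs1 and Thbs2 were higher in metastasis lines, which is 3 of 10 genes beside 5.62% of the 15276 genes tested (7.88% were lower, 13.5% either). With DMSO, Postn was higher and Spon2 lower in metastasis lines, beside 4.64% and 7.49% of the 14992 genes tested (12.1% either). Postn and Thbs2 entered these tests through the metastasis libraries, where they are high. Spon2 entered the DMSO test through the primary libraries, where it is high, with 29, 16 and 5 fragments in M1, M2 and M3. Nothing is therefore read from the counts against these shares. The median log2 difference of the 10 genes was 2.02 with PLX4720 and 1.60 with DMSO, against 0.03 and 0.00 over all genes. Ranges did not overlap between the sites for 7 of the 10 genes under each treatment, beside 34.7% of genes with PLX4720 and 33.2% with DMSO. Such gaps between the sites were thus common among all genes.

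The Postn difference was 12.06 ± 1.09 with PLX4720 (edgeR adjusted p = 0.00196) and 7.36 ± 1.33 with DMSO (adjusted p = 0.0174) on the log2 scale. Both rest on 7 and 10 fragments in primary lines, and the DMSO call was lost without T1, T2 or M2 (adjusted p from 0.0529 to 0.0617). Thbs1 differed by 2.28 ± 0.50 with PLX4720 (adjusted p = 0.0289) and by 0.97 ± 0.41 with DMSO (adjusted p = 0.198). Thbs2 differed by 8.54 ± 2.00 with PLX4720 (adjusted p = 0.0373) and by 6.44 ± 1.70 with DMSO (adjusted p = 0.0580). Both calls with PLX4720 were lost without T2, T3, M2 or M3, and that of Thbs2 also without M1 (adjusted p from 0.0564 to 0.0884). The Spon2 difference was -4.41 ± 0.71 with DMSO (adjusted p = 0.0120), with 50 fragments in all in the metastasis libraries. With PLX4720 its difference of -1.68 ± 1.04 did not pass (adjusted p = 0.361), and the DMSO call was lost without M2 (adjusted p = 0.0583).

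Sparc and Tgfbi stood higher in every metastasis line than in any primary line under both treatments without passing the edgeR test. The Sparc difference was 1.92 ± 0.55 with PLX4720 (adjusted p = 0.0677) and 2.02 ± 0.61 with DMSO (adjusted p = 0.0866). The Tgfbi difference was 3.56 ± 1.24 with PLX4720 (adjusted p = 0.118) and 4.02 ± 1.04 with DMSO (adjusted p = 0.0538). With DESeq2 both passed under both treatments. The Tnc difference did not pass in edgeR, at 2.12 ± 0.84 with PLX4720 (adjusted p = 0.164) and 2.98 ± 1.09 with DMSO (adjusted p = 0.144). It passed with DESeq2 (adjusted p = 0.0462 and 0.0121), and without M3 the edgeR values were 0.95 and 1.27. Fn1, Spp1 and Ccdc80 did not pass under either treatment in edgeR, with values of 0.74, 0.61 and -0.93 with PLX4720 and 0.32, 1.19 and -2.38 with DMSO.

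**Figure D5:**
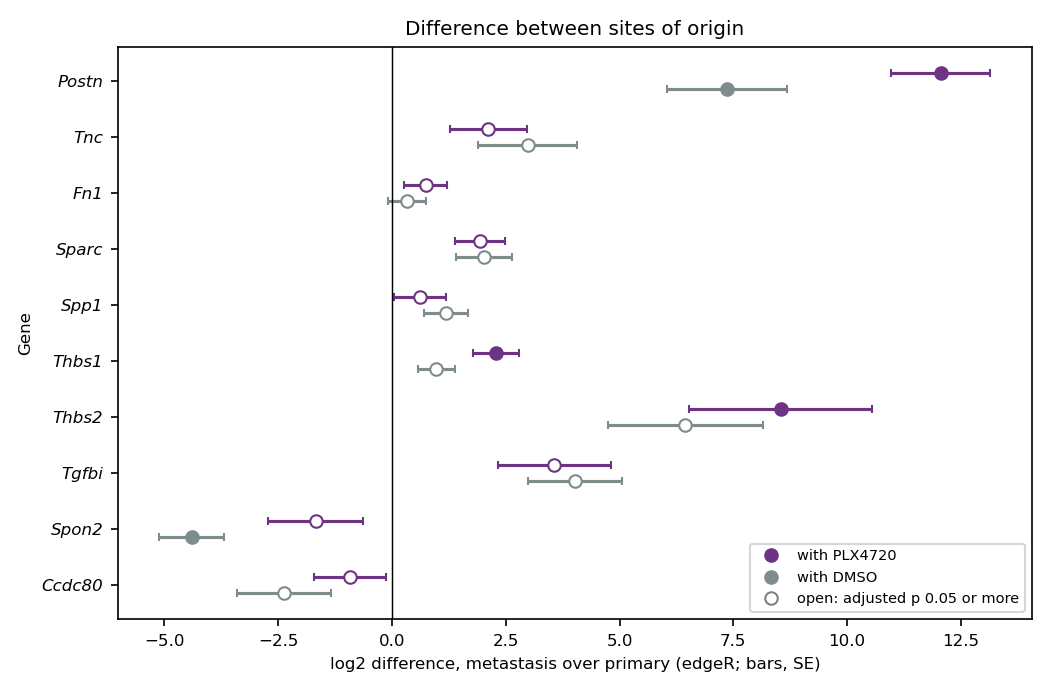
Fitted log2 difference, metastasis over primary lines, for each gene (edgeR, bars show SE), with PLX4720 above DMSO; filled points have an adjusted p below 0.05. The values are positive for 8 genes and negative for Spon2 and Ccdc80, and most do not pass the test, with SEs of 0.41 to 2.00.

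Receptors of these proteins were counted on a list of 21 genes, of which 18 were tested for PLX4720. Over all 6 lines 8 rose and 2 fell, beside 27.2% of all genes tested in either direction, with a median log2 change of 0.43 against 0.03 over all genes. In metastasis lines 7 rose and 2 fell (20.4% of all genes), and in primary lines 4 rose and none fell (8.23% of all genes). Itgb5, the partner of the alpha-v integrin chain in a receptor of vitronectin and osteopontin, was at 420 ± 77.2 CPM with PLX4720 and 208 ± 57.0 CPM with DMSO in metastasis lines. In primary lines it was at 197 ± 45.0 and 167 ± 47.6 CPM, and the difference of the responses was 0.78 (edgeR adjusted p = 0.0226). Egfr, the EGF receptor, which tenascin-C can engage weakly, rose by 0.93 ± 0.10 over all 6 lines (adjusted p = 0.00046). By site the Egfr change was 1.58 in metastasis lines (adjusted p = 0.000299) and 0.29 in primary lines (adjusted p = 0.186), and their difference of 1.29 passed (adjusted p = 0.0154). The Egfr level in metastasis lines was low and uneven, at 15.6 ± 19.0 CPM with PLX4720 and 5.17 ± 6.38 CPM with DMSO. In primary lines Egfr was at 111 ± 50.2 and 93.7 ± 52.1 CPM. Stab1, a scavenger receptor that takes up SPARC, rose by 1.35 ± 0.17 (adjusted p = 0.0011). Itgb7, a leukocyte integrin chain, was lower in 6 of 6 lines and fell by 1.00 ± 0.13 (adjusted p = 0.0011).

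Between the sites with DMSO, 4 of 17 receptor genes tested were higher in metastasis lines and 2 lower, beside 4.64% and 7.49% of all genes. List genes near 0 at 1 site, such as Itga8, Itgb6, Ctsk and Fbln5, passed the filter through the other site, so the site counts of the lists support nothing further. Itgb6, the epithelial partner of alpha-v that binds fibronectin and tenascin-C, averaged 0.0296 CPM in metastasis lines and 57.6 ± 24.1 CPM in primary lines with DMSO (edgeR adjusted p = 0.00131). The metastasis value rests on 3 fragments. In primary lines Itgb6 averaged 177 ± 71.6 CPM with PLX4720, a rise of 1.64 on the log2 scale (adjusted p = 0.000966). Sdc2, a heparan sulfate proteoglycan, was higher in metastasis lines by 4.19 ± 0.39 (adjusted p = 0.00226), at 321 ± 51.8 CPM against 17.8 ± 7.29 CPM with DMSO. Itga8, an integrin chain that binds osteopontin and fibronectin, averaged 5.76 ± 4.35 CPM in metastasis lines with DMSO (adjusted p = 0.00684), against 1 fragment in all 3 primary libraries. Itgb8 was higher in metastasis lines too, by 4.88 ± 0.72 (adjusted p = 0.00918), with 15 fragments in all 3 primary libraries with DMSO.

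Genes of matrix assembly and processing were counted on a second list of 21, with 18 tested. Over all 6 lines 6 rose and 2 fell (27.2% of all genes in either direction), in metastasis lines 8 rose and 1 fell (20.4%), and in primary lines 4 rose and 1 fell (8.23%). Adamts1, a secreted metalloprotease that can cleave thrombospondins, was at 575 ± 417 CPM with PLX4720 and 67.0 ± 44.8 CPM with DMSO in metastasis lines. In primary lines it was at 166 ± 216 and 74.2 ± 97.9 CPM, and the response was larger in metastasis lines by 1.79 (edgeR adjusted p = 0.00411). Tgm2, a transglutaminase that cross-links fibronectin, rose by 2.68 in metastasis lines (adjusted p = 4.61e-05) and by 1.19 in primary lines (adjusted p = 0.00682). Its level with DMSO was lower in metastasis lines than in primary lines, with a log2 difference of -3.03 ± 0.57 (adjusted p = 0.0201). Mmp14, a membrane-bound matrix protease, rose by 0.62 ± 0.06 over all 6 lines (adjusted p = 0.0003). Pcolce, an enhancer of procollagen processing, rose by 0.66 ± 0.10 (adjusted p = 0.00266). Between the sites with DMSO, 5 of 17 were higher in metastasis lines and 2 lower, beside 4.64% and 7.49% of all genes. Ctsk, a collagen-degrading cathepsin, was higher by 8.06 ± 0.81 (adjusted p = 0.00284), Mmp2 by 7.04 ± 1.08 (adjusted p = 0.0107) and Mmp3 by 5.29 ± 1.14 (adjusted p = 0.0296). The primary DMSO libraries held 9 Ctsk fragments in all.

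Other members of these protein families were counted on a list of 37 genes, of which 24 were tested for PLX4720. In metastasis lines 13 rose and 2 fell (20.4% of all genes in either direction), in primary lines 2 rose and 1 fell (8.23%), and over all 6 lines 8 rose and 2 fell (27.2%). The primary count, 12.5% of the list, is near the share of all genes. The difference of the responses passed for 2 of the 24, both more positive in metastasis lines, beside 2.94% of all genes. Efemp1, a fibulin, rose by 0.90 ± 0.10 over all 6 lines (edgeR adjusted p = 0.000456). Thbs3, another thrombospondin, rose by 0.95 ± 0.11 (adjusted p = 0.000811), and its response was larger in metastasis lines by 1.35 (adjusted p = 0.0209), as was that of Thbs1. Fstl1, a relative of Sparc, rose by 0.90 ± 0.15 (adjusted p = 0.00325) and was higher in 5 of 6 lines. Its change was 1.41 in metastasis lines (adjusted p = 0.000771) and 0.38 in primary lines (adjusted p = 0.344). The Fstl1 difference of 1.03 between these responses did not pass (adjusted p = 0.11). Between the sites with DMSO, 3 of 16 were higher in metastasis lines and none lower, beside 4.64% and 7.49% of all genes. Those were Fbln5 (adjusted p = 0.00165), Emilin1 (adjusted p = 0.00219) and Emilin2 (adjusted p = 0.00918), which encode proteins associated with elastic fibres. Emilin1 stood at 72.7 ± 24.9 CPM in metastasis lines and 0.494 ± 0.288 CPM in primary lines with DMSO. Fbln5 stood at 27.0 ± 11.0 CPM in metastasis lines, against 1 fragment in all 3 primary libraries. Spon1, the relative of Spon2 that encodes F-spondin, did not pass between the sites (-1.30 ± 0.37, adjusted p = 0.0720) and changed by 0.24 with PLX4720 (adjusted p = 0.392). Its levels were low, at 0.779 CPM in metastasis lines and 1.94 CPM in primary lines with DMSO.

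Genes with the most similar pattern of change were looked up for 5 of the 10 genes, among 13063 genes with a mean of at least 1 CPM. The measure was the root mean square difference between the changes in the 6 lines, on the log2(CPM + 1) scale. For Postn the nearest was Ptx3, a secreted pentraxin (0.45), then Col11a1, a fibrillar collagen chain (0.53). Postn stood near 0 CPM in the primary lines, so the added 1 held its changes there near 0. Ptx3 (0.0 in T1, T2 and T3) and Col11a1 (0.02 to 0.08) also hardly changed there, so the Postn match rests on the M lines. For Thbs1 they were Fgd3 (0.20) and Ccn1, a matricellular protein of the CCN family (0.23). For Spp1 they were Itga6, a laminin-binding integrin chain (0.25), and Ereg, the EGF receptor ligand epiregulin (0.30). For Fn1 they were Heg1 (0.12) and Gstm1 (0.15), and for Spon2 they were Bmf (0.27) and Enpp2 (0.72). These values describe 6 lines, and the added 1 flattens the Spon2 changes in M2 and M3, where its DMSO levels were 0.476 and 0.145 CPM.

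Tgfb2, the gene named in the title of the series, averaged 21.4 CPM with PLX4720 and 2.83 CPM with DMSO in metastasis lines. In primary lines it averaged 16.1 CPM with PLX4720 and 2.53 CPM with DMSO. Its response did not pass as different between the sites (0.25, edgeR adjusted p = 0.768), while those of Thbs1, Spon2 and Ccdc80 did. Any part of Tgfb2 in the changes of the 10 genes was not tested.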

How the data were processed

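Total RNA depleted of ribosomal RNA was sequenced from 12 libraries with a stranded kit, per the labels' protocols. Each deposited table holds unnormalized fragment counts for every gene; the authors ran featureCounts 1.5.2 on Ensembl 84 exons of GRCm38, per the file headers. The header's command shows no strand option, so reads of overlapping genes on opposite strands cannot be separated. No source used here names the aligner. Exons of Tnc, Fn1, Thbs1 and Spp1 overlap another gene, with at most 104, 25, 22 and 162 fragments. Symbols came from the reference annotation and matched 47224 of 47729 identifiers.

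The analysis used edgeR 4.0.16 in R 4.3.3 (filterByExpr, TMM, quasi-likelihood test, Benjamini-Hochberg adjustment over all genes tested, threshold 0.05). The PLX4720 effect was fitted on all 12 libraries, blocked by cell line, with separate treatment terms for the sites. Sites were compared within each treatment, on 6 libraries. Each SE is the size of the log2 change over the square root of F, and is approximate for genes with few fragments. The block rests on the labelled cell line, since deviations of both libraries of a line correlated at 0.794 to 0.900. No pair of libraries in a group was a duplicate (chi-square per degree of freedom at least 127). CPM were scaled by TMM, and the change of a line is its difference in log2(CPM + 1). The fits were also run on simulated counts that held no differences between the lines of a group. Those counts therefore do not show how the fits behave at the spread of the real lines. The alternatives were DESeq2 1.42.0, RLE scaling, no filter, each line left out, the block dropped or added, and each site fitted alone.

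The 10 genes, the lists and the motifs were chosen with earlier results of these data known. The genes named from the lists have the smallest p over all 6 lines or between the sites with DMSO, up to 4 each. Intervals and p-values cover the spread between these lines only, and the reads carry no molecular identifiers.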

Additional observations from a re-analysis of the deposited data

Results flagged for a closer look

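The response to PLX4720 differed between the sites for 3 of the 10 genes by the test of the difference itself. The log2 response in metastasis lines minus that in primary lines was 1.27 for Thbs1, 2.41 for Spon2 and 1.63 for Ccdc80, and every line of both sites was higher with PLX4720. For Thbs2 all 3 metastasis lines were higher and all 3 primary lines lower with PLX4720, a difference of 1.78 that did not pass in edgeR (adjusted p = 0.0699). The 6 line changes of each gene were also examined for a line far from the rest, by its gap to the nearest line over the range of all 6, against the critical value of Dixon. None of the 10 genes passed it, with both sites pooled, which widens the range. On the log2(CPM + 1) scale, also used for this check, Spon2 changed by 4.11 in M1 and by 0.82 to 2.11 in the other 5 lines. The added 1 flattens the changes in M2 and M3, with DMSO levels of 0.476 and 0.145 CPM. Taken without it, the rise was 36.0-fold, 11.3-fold and 7.01-fold in M1, M2 and M3. In the primary lines it was 3.06-fold to 4.65-fold. Without M1 the fitted Spon2 difference between the sites was 1.39.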

How the results depend on the processing

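Of 619 recalculated values of the 10 genes, 506 kept their direction and their side of the threshold, 67 lost a call, 40 gained one and 6 turned sign, none of which had been called. With no replicate block, calls over all genes fell to 18 over all 6 lines, 15 in metastasis lines, 1 in primary lines and 0 for the difference, and the 10 genes had 0 calls in each; there Thbs2 over all lines was 0.04. A replicate block by line number, which is no pairing (r from -0.0881 to 0.0628), gave 1106 site calls with DMSO, 5 of them among the 10 genes. No filter gave 2052 calls in primary lines and 996 for the difference, with 5 of the 10 genes there and 4 between sites with DMSO. DESeq2 gave 920 for the difference (5 of the 10 genes), 3163 between sites with PLX4720 (6) and 2974 with DMSO (6). Fitted alone, metastasis lines gave 2195 and primary lines 2491. Leaving out each line gave 2417 to 4384 calls over all lines, 1891 to 3090 in metastasis lines, 91 to 2252 in primary lines and 122 to 798 for the difference. Between sites it gave 1097 to 1712 with PLX4720 and 901 to 1595 with DMSO. For the 10 genes these ranges were 1 to 8 in primary lines, 0 to 5 for the difference, 1 to 3 between sites with PLX4720 and 0 to 3 with DMSO. Signs turned when 1 line was left out for Thbs2 over all lines (-0.33 without M1 to 0.02 without M3), for the differences of Tgfbi (0.00 without T1; -0.58 without M1 to 0.18 without M2) and Tnc (-0.86 without M1 to 0.05 without M3), and for Fn1 between sites with DMSO (-0.17 without M2 to 0.66 without M3). The cause of each was not tested. Depth limits Postn in primary lines and Spon2 in metastasis lines with DMSO.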
